A study of Homo sapiens with 12 samples.

Results

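The genes described here are 10 that encode matrix-degrading metalloproteases and their natural inhibitors, chosen by symbol from a table of 26506 genes. They are the matrix metalloproteases MMP1, MMP2, MMP7, MMP14 and MMP15, the proteases ADAMTS1 and ADAMTS15, and the tissue inhibitors of metalloproteases TIMP1, TIMP2 and TIMP3. Of these 10 genes, 9 had enough counts to be tested and TIMP3 did not. Their mRNA was measured by RNA sequencing in HK-2, a line of human proximal tubule epithelial cells immortalised with papillomavirus genes. The cells carried 1 of 4 sets of short hairpin RNAs, with 3 samples each. Luc976 is named after luciferase, a gene that human cells lack, and was taken as the control. In shVHL61 the hairpin targets VHL and in shKIM1-A1 it targets KIM-1, the product of HAVCR1, while shVHL61-KIM1A1 has both hairpins. The labels name no treatment or time. The sources used here do not say whether a group is a clone or a pool, nor whether its 3 samples are separate cultures, so p-values reflect only how these samples vary, and that variation may be technical.

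Metalloproteases of the MMP family are made as inactive precursors with a zinc ion in the catalytic site, and removal of the propeptide turns them on. MMP1, MMP2 and MMP7 are secreted, whereas MMP14 and MMP15 are anchored in the cell membrane. ADAMTS proteases are secreted, carry thrombospondin repeats and cleave proteoglycans such as versican and aggrecan. TIMPs bind the active proteases one to one, and TIMP2 also links MMP14 to the MMP2 precursor at the cell surface, where MMP14 activates it. In the kidney, MMP7 is known as a gene that injured tubule cells switch on and as a target of beta-catenin. VHL marks hypoxia-inducible factors for breakdown, and KIM-1 is a surface receptor of injured tubule cells. The design asks what each hairpin changes alone, and what the KIM-1 hairpin adds on top of the VHL hairpin.

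The reference promoters show how differently the starts of these genes are built, and 3 are printed because MMP7, MMP15 and TIMP1 had 3 different patterns across the groups. A RefSeq promoter (GRCh38.p14) was found for 5 of the 10 genes, and the 250 bases before the start of transcription are given 5′ to 3′ on the strand of the gene. Capitals mark the motifs searched on both strands, which were the AP-1 site (TGAGTCA or TGACTCA), the core of the hypoxia response element (ACGTG or GCGTG) and the TATA box (TATAAA). The MMP7 stretch is chr11:102530748-102530997 on the minus strand, MMP15 is chr16:58025504-58025753 on the plus strand, and TIMP1 is chrX:47582186-47582435 on the plus strand.
MMP7: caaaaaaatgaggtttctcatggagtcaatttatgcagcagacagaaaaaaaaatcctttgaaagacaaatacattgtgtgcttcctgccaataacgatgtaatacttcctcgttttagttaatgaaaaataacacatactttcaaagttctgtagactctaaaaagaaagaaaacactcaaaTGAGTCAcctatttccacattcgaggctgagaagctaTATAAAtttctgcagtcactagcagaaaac
MMP15: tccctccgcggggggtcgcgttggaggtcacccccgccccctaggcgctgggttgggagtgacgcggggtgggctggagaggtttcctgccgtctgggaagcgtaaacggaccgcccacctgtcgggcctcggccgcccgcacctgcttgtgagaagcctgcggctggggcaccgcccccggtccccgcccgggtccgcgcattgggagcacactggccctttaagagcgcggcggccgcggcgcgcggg
TIMP1: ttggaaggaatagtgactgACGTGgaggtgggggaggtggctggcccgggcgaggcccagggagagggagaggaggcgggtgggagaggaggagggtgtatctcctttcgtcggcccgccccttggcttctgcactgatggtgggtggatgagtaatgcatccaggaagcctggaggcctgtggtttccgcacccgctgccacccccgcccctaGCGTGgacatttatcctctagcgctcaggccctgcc

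The MMP7 promoter held an AP-1 site from 67 to 61 bases before the start and a TATA box from 30 to 25 bases before it, in a stretch with a GC content of 33.6%. AP-1 sites of these letters lay in 4.16% of the 27305 RefSeq promoter stretches of the same length, and TATAAA lay in 11.13% of them. The MMP15 stretch had a GC content of 74.8% and held none of the motifs searched. In TIMP1 the hypoxia core matched at 231 to 227 and at 36 to 32 bases before the start. The MMP14 and TIMP3 stretches held 1 such match each. The hypoxia core is short and lay in 43.08% of all stretches, and a match is a description of letters, not of binding.

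The 12 libraries held 16500965 to 21089716 counts. In CPM, that is counts scaled to a common library size, VHL ranged over 52.8 to 53.5 for Luc976, over 37.3 to 39.3 for shVHL61, over 57.4 to 61.0 for shKIM1-A1 and over 38.2 to 43.3 for shVHL61-KIM1A1. HAVCR1 ranged over 113 to 133, 132 to 152, 52.0 to 60.6 and 71.3 to 99.0 CPM in the same order. The line with both hairpins thus kept more HAVCR1 mRNA than shKIM1-A1 (log2 fold change 0.55, SE 0.10, edgeR adjusted p = 0.000476). The kidney epithelial factor PAX8 (TPM means of 141 to 203 over the groups) and the keratins KRT8 (817 to 1029) and KRT18 (475 to 742) were expressed, while the apical receptor LRP2 was at 0 counts in all samples and CUBN at 3 to 17 counts per group. Of 8 fibroblast markers, LUM was abundant (5729 to 7676 counts per group), with summed TPM of the list from 104 to 156 over the samples. COL1A1 held 1352 to 2168, DCN 5 to 368, PDGFRB 25 to 63, PDGFRA 0 to 3 and COL1A2 0 to 2 counts per group. Summed TPM was 0.03 to 1.36 over 6 endothelial markers, with KDR and EMCN at 0, and 133 to 170 over 7 immune markers, with CD3E and MS4A1 at 0. Most of the immune sum was CD68 (TPM means of 125 to 156), and CD14 held 352 to 443 counts per group. The part of these cell types in the results was not tested. The libraries fall into sets A and B by the direction in which transcript GC content moved with a sample's deviation from its group (Spearman 0.33 to 0.81 for A and -0.70 to -0.37 for B). Each group has 1 or 2 samples in each set. Both hairpins against Luc976 in set A has 2 samples per arm. Every other comparison within a set has at least 1 arm of 1 sample. Values within a set stand beside the results they touch as differences only, without calls.

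Seen per transcript length, TIMP1 was the most abundant of the 10 mRNAs in every group. Deposited TPM (a transcript abundance that corrects for gene length) of TIMP1 averaged 754 ± 20.3 in Luc976 (SD, n = 3), which ranked 177 among the 14230 tested genes. MMP14 followed with 185 ± 13.9 TPM and MMP7 with 175 ± 7.66 TPM, and their samples overlapped. TIMP2 stood at 140 ± 1.37 TPM and ADAMTS1 at 23.5 ± 0.936 TPM. MMP15 (11.9 ± 0.679) and MMP1 (10.8 ± 1.26) overlapped, and ADAMTS15 (7.30 ± 0.448) and MMP2 (1.34 ± 0.303) came last. In shVHL61 and in shVHL61-KIM1A1 MMP7 stood above MMP14 in TPM without overlap, and in shKIM1-A1 MMP7 dropped below TIMP2 to 57.7 ± 4.58 TPM. MMP2 and ADAMTS15 overlapped at the bottom of the order in shKIM1-A1, at 2.12 ± 0.243 and 2.08 ± 0.299 TPM.

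MMP7 is the smallest of these 5 MMPs and lacks the hemopexin domain that the other 4 have. Its group means spanned 2.19 on the log2 CPM scale. In Luc976 its 3 samples held 89.8, 96.8 and 93.8 CPM. The values were 118, 131 and 121 CPM in shVHL61, and 29.1, 27.3 and 30.1 CPM in shKIM1-A1. With both hairpins they were 128, 132 and 133 CPM. The shKIM1-A1 samples thus lay below all others, the Luc976 samples stood between, and the samples of the 2 groups with the VHL hairpin overlapped at the top. MMP7 rose by 0.40 on the log2 scale in shVHL61 against Luc976 (SE 0.06, edgeR adjusted p = 0.000192). It was 3.24-fold lower in shKIM1-A1 than in Luc976 (adjusted p = 1.14e-10). Where the VHL hairpin was present, the KIM-1 hairpin left MMP7 at a log2 difference of 0.09 with a 95% interval from -0.04 to 0.21 (edgeR adjusted p = 0.242). With a term for the library set this difference was 0.11 and passed (edgeR adjusted p = 0.0448). MMP7 was 4.56-fold higher with both hairpins than with the KIM-1 hairpin alone (edgeR adjusted p = 5.07e-13). The effect of the KIM-1 hairpin on MMP7 differed between the cells with and without the VHL hairpin by 1.79 on the log2 scale (SE 0.09, 95% interval 1.60 to 1.97, edgeR adjusted p = 2.04e-09). The rise in shVHL61 was 0.37 and 0.38 on the log2 scale within sets A and B, and the fall in shKIM1-A1 was -1.75 and -1.71. The KIM-1 hairpin on top of the VHL hairpin gave 0.17 in set A and 0.02 in set B. The difference between the effects was 1.91 among set A libraries and 1.73 among set B libraries. In these bulk samples, fewer cells that express a gene and less of its RNA per cell cannot be told apart.

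**Figure D1:**
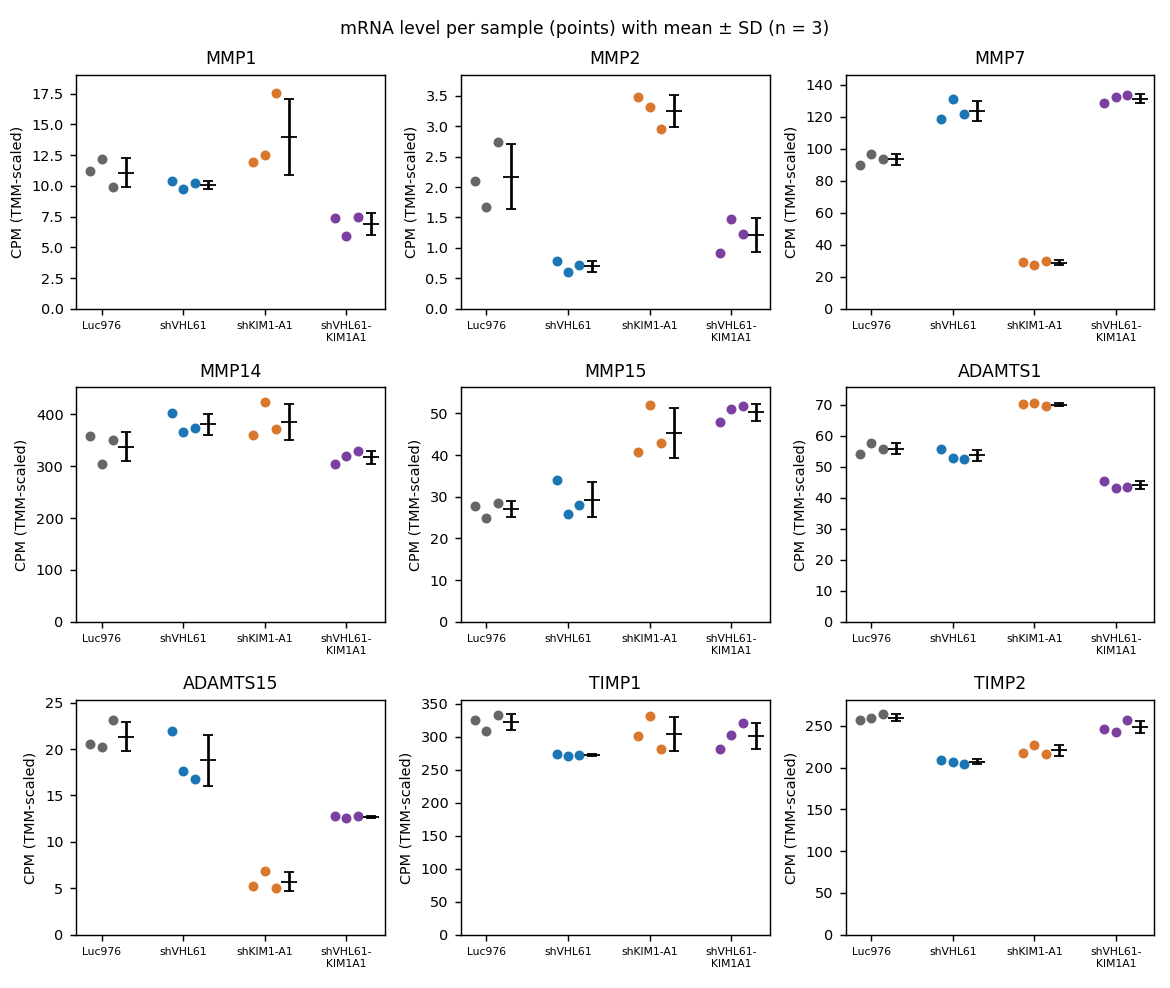
Levels of the 9 tested genes in CPM on TMM-scaled library sizes, with 1 point per sample and the mean ± SD of each group of 3 at its right. The shKIM1-A1 samples of MMP7 lie at 27.3 to 30.1 CPM, below the 118 to 133 CPM of the groups with the VHL hairpin, and MMP15 stands higher in both groups with the KIM-1 hairpin.

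MMP2, gelatinase A, which degrades basement membrane collagen after activation at the cell surface, was scarce. Its samples held 2.10, 1.67 and 2.74 CPM in Luc976, from 33 to 46 counts each. In shVHL61 they held 0.778, 0.602 and 0.724 CPM, from 12 to 16 counts. The shKIM1-A1 samples held 3.48, 3.32 and 2.95 CPM, and those with both hairpins 0.919, 1.48 and 1.22 CPM. None of these 4 groups overlapped another. MMP2 was 3.05-fold lower in shVHL61 than in Luc976 (edgeR adjusted p = 0.000364). The log2 fold change was -1.61 with an SE of 0.25, and -1.61 and -1.33 within library sets A and B. It was 2.69-fold lower with both hairpins than in shKIM1-A1 (edgeR adjusted p = 8e-05), with log2 values of -1.30 and -1.80 within the sets. The KIM-1 hairpin raised MMP2 by a log2 of 0.59 without the VHL hairpin (SE 0.20, edgeR adjusted p = 0.0328) and by 0.77 with it (SE 0.28, adjusted p = 0.0368). Both calls rest on few counts and were lost with DESeq2 (adjusted p = 0.0774 and 0.0672). They were also lost on leaving out single samples. For shKIM1-A1 against Luc976 these were Luc976 samples 1 and 2 and shKIM1-A1 samples 1 and 2, with edgeR adjusted p from 0.06 to 0.126. For both hairpins against shVHL61 they were each shVHL61 sample and shVHL61-KIM1A1 samples 2 and 3, with edgeR adjusted p from 0.0534 to 0.143. Within sets A and B the first rise was 0.47 and 0.94 and the second 0.78 and 0.47. The difference between the effects was 0.18 with a 95% interval from -0.54 to 0.90 (edgeR adjusted p = 0.763), 0.31 within set A and -0.47 within set B.

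MMP1, interstitial collagenase, which cuts fibrillar collagen, was lowest with both hairpins. The Luc976 samples held 11.2, 12.2 and 9.87 CPM and the shVHL61 samples 10.4, 9.73 and 10.2 CPM. In shKIM1-A1 they held 11.95, 12.5 and 17.6 CPM, where sample 3 stood apart from the others, and with both hairpins 7.35, 5.91 and 7.43 CPM. The last group lay below every sample of the other 3 groups, while Luc976 and shVHL61 overlapped. MMP1 fell by 0.54 on the log2 scale when the KIM-1 hairpin joined the VHL hairpin (SE 0.15, edgeR adjusted p = 0.00744). Without the VHL hairpin the value was 0.34 with a 95% interval from 0.05 to 0.62 and did not pass (edgeR adjusted p = 0.0666). It passed with limma (adjusted p = 0.0456 and 0.0471), with a term for the library set (edgeR adjusted p = 0.0496) and without shKIM1-A1 sample 1 or 2 (edgeR adjusted p = 0.0323 and 0.0284), and it was 0.14 without shKIM1-A1 sample 3 (edgeR adjusted p = 0.407). Limma used TPM, and on log2(TPM + 1) the median of the well-expressed genes (average log2 CPM of 2 or more) lay at 0.08. The difference between these effects was -0.88 (SE 0.20, edgeR adjusted p = 0.00567). It was -0.87 among set A libraries and -0.72 among set B libraries. The fall against shVHL61 was -0.63 in set A and -0.44 in set B. Against shKIM1-A1, MMP1 was 2.03-fold lower with both hairpins (edgeR adjusted p = 3.32e-05), with log2 values of -0.90 and -1.01 within the sets.

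The membrane-anchored proteases MMP14 and MMP15 moved differently from each other. MMP15 held 27.8, 25.0 and 28.4 CPM in Luc976 and 34.0, 25.8 and 28.1 CPM in shVHL61. It held 40.8, 52.0 and 42.8 CPM in shKIM1-A1 and 48.0, 51.0 and 51.7 CPM with both hairpins. All 6 samples with the KIM-1 hairpin stood above all 6 without it. MMP15 rose by 0.74 (SE 0.10, edgeR adjusted p = 6.71e-05) and by 0.78 (SE 0.10, adjusted p = 2.17e-05) on the log2 scale when the KIM-1 hairpin was added without and with the VHL hairpin. The difference between the effects was 0.04 with a 95% interval from -0.27 to 0.35 (edgeR adjusted p = 0.893). Within the sets the first rise was 0.89 and 0.74, the second 0.60 and 0.83, and their difference -0.30 and 0.09. In shVHL61 against Luc976 MMP15 did not pass (log2 0.11, edgeR adjusted p = 0.496). With a term for the library set it did (0.19, adjusted p = 0.0304). Both hairpins against shKIM1-A1 gave 0.15 (edgeR adjusted p = 0.24), and 0.27 without shKIM1-A1 sample 2, which passed (adjusted p = 0.0328).

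MMP14, the activator of the MMP2 precursor, held 358, 305 and 350 CPM in Luc976 and 403, 365 and 374 CPM in shVHL61. It held 360, 425 and 372 CPM in shKIM1-A1 and 304, 320 and 329 CPM with both hairpins. The samples with both hairpins lay below those with either hairpin alone and overlapped Luc976. MMP14 fell with both hairpins by 0.26 against shVHL61 (edgeR adjusted p = 0.00805) and by 0.28 against shKIM1-A1 (adjusted p = 0.00527). The first fall was -0.31 and -0.28 within sets A and B, and the second -0.39 and -0.27. Its differences from Luc976 of 0.17 in shVHL61 and 0.19 in shKIM1-A1 did not pass (edgeR adjusted p = 0.111 and 0.0532). Within sets A and B they were 0.19 and 0.28, and 0.27 and 0.26. With a term for the library set both passed (log2 0.23, edgeR adjusted p = 5.31e-05, and 0.24, adjusted p = 9.89e-06). The rise in shKIM1-A1 also passed with DESeq2 (adjusted p = 0.0439), without a filter on low counts (edgeR adjusted p = 0.0414) and with limma (adjusted p = 0.00252 and 0.0026). It passed as well without sample 1 of Luc976, of shKIM1-A1 or of shVHL61-KIM1A1 (edgeR adjusted p = 0.0353, 0.0283 and 0.0493). On the log2(TPM + 1) scale of limma the median of the well-expressed genes lay at 0.08 in shKIM1-A1 against Luc976. The effect of the KIM-1 hairpin differed by -0.45 between cells with and without the VHL hairpin (SE 0.10, edgeR adjusted p = 0.00538), -0.58 in set A and -0.54 in set B.

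ADAMTS15, a protease of aggrecan and versican, was lowest in shKIM1-A1. Its samples held 20.6, 20.3 and 23.1 CPM in Luc976 and 21.9, 17.6 and 16.8 CPM in shVHL61. They held 5.21, 6.85 and 4.97 CPM in shKIM1-A1 and 12.7, 12.6 and 12.8 CPM with both hairpins. The groups without the KIM-1 hairpin overlapped, and the samples with both hairpins lay between them and shKIM1-A1. ADAMTS15 was 3.75-fold lower in shKIM1-A1 than in Luc976 (edgeR adjusted p = 2.79e-08), -1.66 on the log2 scale among set A libraries and -1.99 among set B. In the presence of the VHL hairpin the fall was 0.57 on the log2 scale (SE 0.12, edgeR adjusted p = 0.000993), with -0.79 and -0.43 in the sets. The fall was smaller there by 1.34 (SE 0.17, edgeR adjusted p = 5.48e-05), 0.87 in set A and 1.56 in set B. Unlike MMP7, which stood above Luc976 with both hairpins, ADAMTS15 was 2.24-fold higher than in shKIM1-A1 (edgeR adjusted p = 3.8e-06) and stayed below Luc976 (log2 fold change -0.75, edgeR adjusted p = 5.73e-05).

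ADAMTS1, which cleaves versican and aggrecan, had small changes with little spread. The samples held 54.1, 57.7 and 55.8 CPM in Luc976 and 55.6, 52.9 and 52.6 CPM in shVHL61. They held 70.2, 70.6 and 69.5 CPM in shKIM1-A1 and 45.5, 43.3 and 43.5 CPM with both hairpins. The shKIM1-A1 samples were above and the samples with both hairpins below all others. The KIM-1 hairpin raised ADAMTS1 by 0.33 on the log2 scale without the VHL hairpin (SE 0.06, edgeR adjusted p = 0.000409) and lowered it by 0.28 with the VHL hairpin present (SE 0.06, adjusted p = 0.000967). Within sets A and B the rise was 0.37 and 0.28, and the fall -0.36 and -0.21. With both hairpins ADAMTS1 was lower than in shKIM1-A1 by a log2 of -0.67 (SE 0.06, edgeR adjusted p = 1.58e-07). The difference of -0.61 passed (SE 0.08, edgeR adjusted p = 7.26e-05), and was -0.73 in set A and -0.49 in set B.

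**Figure D2:**
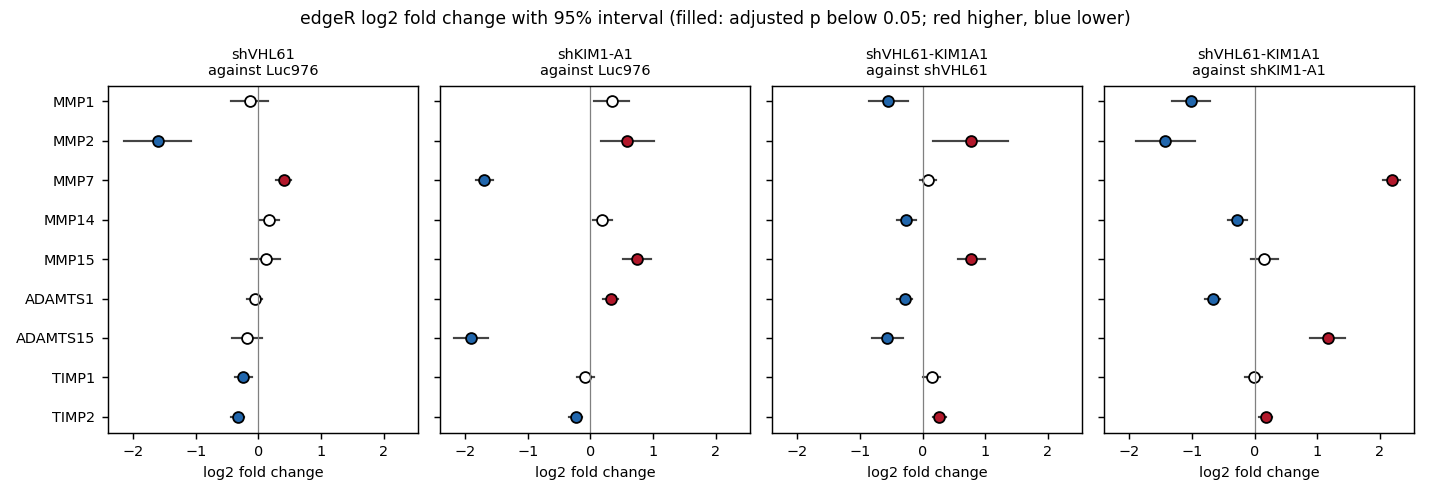
Log2 fold changes of the 9 tested genes in 4 comparisons of the hairpin groups, with 95% intervals, filled where the edgeR adjusted p is below 0.05 (red higher, blue lower). MMP7 lies at -1.70 in shKIM1-A1 against Luc976 and at 0.09 in shVHL61-KIM1A1 against shVHL61, whereas MMP15 lies at 0.74 and 0.78.

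Between the lowest and the highest group mean TIMP1 and TIMP2 spanned 0.24 and 0.33 on the log2 CPM scale, beside 0.28 for MMP14 and 0.67 to 2.19 for the other 6 tested genes. TIMP1, a secreted inhibitor of most soluble MMPs, held 326, 309 and 334 CPM in Luc976 and 273, 272 and 273 CPM in shVHL61. It held 301, 332 and 281 CPM in shKIM1-A1 and 281, 302 and 321 CPM with both hairpins. The shVHL61 samples lay below all others, and the other 3 groups overlapped. TIMP1 fell by 0.24 in shVHL61 against Luc976 (SE 0.06, edgeR adjusted p = 0.0157), -0.26 in set A and -0.18 in set B. Leaving out Luc976 sample 1 or 3 or shVHL61 sample 2 or 3 ended this call (edgeR adjusted p from 0.0578 to 0.0751, log2 fold change from -0.24 to -0.22). In the other comparisons TIMP1 did not pass with edgeR on all samples, and some alternatives passed. Against shVHL61, both hairpins gave 0.11 with the library set as a term (edgeR adjusted p = 0.0343), 0.15 without shKIM1-A1 sample 2 (adjusted p = 0.0389) and 0.19 without shVHL61-KIM1A1 sample 1 (adjusted p = 0.0291). With limma on log2(TPM + 1) they gave -0.20 against shKIM1-A1 (adjusted p = 0.00329) and -0.19 against Luc976 (adjusted p = 0.00406), and a term for the library set gave -0.10 against Luc976 (edgeR adjusted p = 0.038). The median of the well-expressed genes on log2(TPM + 1) lay at -0.16 against shKIM1-A1 and at -0.08 against Luc976. On CPM the TIMP1 values were -0.02 and -0.10. The difference between the effects was 0.29 without shKIM1-A1 sample 2 (edgeR adjusted p = 0.0156) and 0.28 without shVHL61-KIM1A1 sample 1 (adjusted p = 0.036).

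TIMP2, the partner of MMP14 in the activation of MMP2, held 257, 259 and 264 CPM in Luc976 and 210, 207 and 204 CPM in shVHL61. It held 218, 228 and 216 CPM in shKIM1-A1 and 246, 243 and 257 CPM with both hairpins. Each hairpin alone stood below Luc976 and below both hairpins together, and the latter overlapped Luc976. TIMP2 fell by 0.33 in shVHL61 (SE 0.05, edgeR adjusted p = 0.00019) and by 0.24 in shKIM1-A1 (SE 0.05, adjusted p = 0.00145) against Luc976, with -0.31 and -0.33, and -0.19 and -0.26, within the sets. The effect of the KIM-1 hairpin on TIMP2 differed by 0.50 between the backgrounds (SE 0.07, edgeR adjusted p = 8.84e-05), 0.44 in set A and 0.52 in set B. TIMP2 rose by 0.27 with both hairpins against shVHL61 (edgeR adjusted p = 0.000377) and by 0.17 against shKIM1-A1 (adjusted p = 0.00861). The second of these was 0.14 within set A and 0.18 within set B, and with limma on log2(TPM + 1) it was -0.01, a scale on which the median of the well-expressed genes (average log2 CPM of 2 or more) lay at -0.16 in the same comparison.

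TIMP3, which stays bound to the matrix and also inhibits ADAM and ADAMTS proteases, was hardly detected. It held 0 counts in 10 of the 12 samples, 2 counts in 1 shVHL61 sample and 1 count in 1 sample with both hairpins. A count of 0 allows up to 3 counts, or 0.146 to 0.178 CPM in these 10 samples, for counting error only, and no comparison was made.

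Over the 9 tested genes, 4 passed in shVHL61 against Luc976, 1 higher and 3 lower, where 16.7% of all tested genes passed, 7.21% higher and 9.44% lower. In shKIM1-A1 against Luc976 6 passed, 3 in each direction, where 31.4% of all tested genes passed, 14.8% higher and 16.6% lower. Adding the KIM-1 hairpin to shVHL61 gave 3 higher and 4 lower, where 42.6% of all genes passed, 21.2% higher and 21.3% lower. Against shKIM1-A1 the line with both hairpins had 3 higher and 4 lower, where 42% passed, 21.1% higher and 20.9% lower. It had 2 higher and 4 lower against Luc976, where 51.4% passed, 25.2% higher and 26.3% lower, and there MMP15 rose by 0.89 and MMP2 fell by 0.84 on the log2 scale. The MMP2 value was -0.647 to -0.999 on leaving out 1 sample. For the difference between the effects of the KIM-1 hairpin, 3 were higher and 3 lower, where 19.8% of all genes passed, 10.2% higher and 9.52% lower.

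The median log2 fold change of the 9 was -0.14 in shVHL61 against Luc976 (all genes -0.01), 0.19 in shKIM1-A1 against Luc976 (all genes 0.01) and 0.09 with both hairpins against shVHL61 (all genes 0.01). Their median size of change, without sign, was 0.18, 0.34 and 0.28, beside 0.15, 0.19 and 0.23 over all genes. In shKIM1-A1 against Luc976, 94 of the 14230 genes changed at least as much as MMP7, itself included, and 58 at least as much as ADAMTS15. The samples of both groups did not overlap for 5 of the 9 in shVHL61 against Luc976 and for 7 in shKIM1-A1 against Luc976, where 36% and 41.2% of all genes did not. They did not overlap for 8 of the 9 between both hairpins and shVHL61, where 52.5% did not, for 7 between both hairpins and shKIM1-A1, where 48.7% did not, and for 6 between both hairpins and Luc976, where 58% did not.

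**Figure D3:**
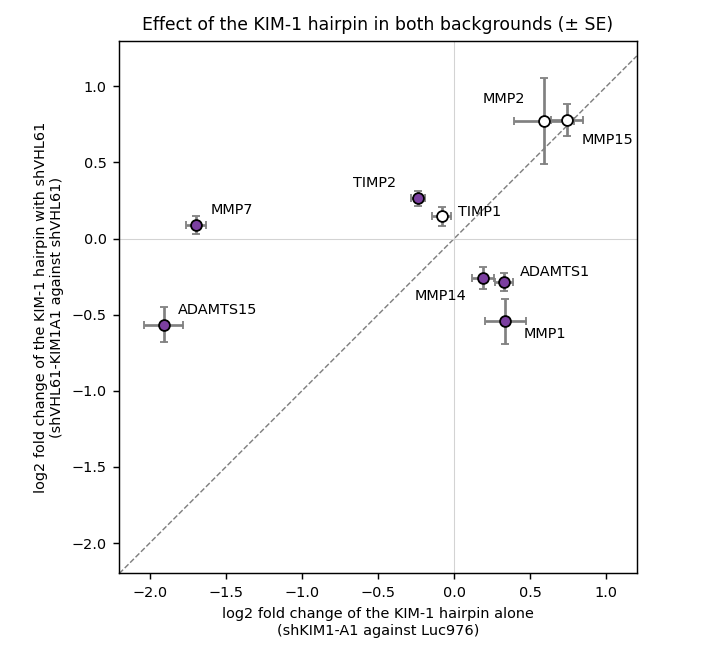
Log2 fold change of the KIM-1 hairpin alone (x axis) and in cells with the VHL hairpin (y axis) for the 9 tested genes, with SE bars, filled where the difference between the effects passed and with a dashed line of equal effects. MMP15 lies on the line at 0.74 and 0.78, and MMP7 lies farthest from it at -1.70 and 0.09.

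Which protease mRNA dominated depended on the hairpin. The summed TPM of the 5 MMPs was 384 ± 6.30 for Luc976, 455 ± 4.58 for shVHL61, 321 ± 10.4 for shKIM1-A1 and 424 ± 6.81 for both hairpins (SD, n = 3 each). MMP7 supplied 45.6% ± 2.76, 49.97% ± 2.56, 18.0% ± 1.81 and 54.7% ± 0.479 of this sum, and MMP14 48.1% ± 2.86, 45.0% ± 2.11, 70.2% ± 2.10 and 38.7% ± 0.448. In shKIM1-A1 the sum was thus mostly MMP14. The summed TPM of the TIMPs was 894 ± 19.5, 736 ± 3.68, 887 ± 44.1 and 789 ± 17.0 in the same order. The ratio of TIMP mRNA to the mRNA of these 5 MMPs was 2.33 ± 0.0249 for Luc976, 1.62 ± 0.0230 for shVHL61, 2.76 ± 0.158 for shKIM1-A1 and 1.86 ± 0.0581 for both hairpins, and no sample overlapped another group. This ratio leaves out 19 other MMP genes. Their summed TPM ranged over 75.4 to 85.1 for Luc976 and 68.5 to 79.3 for shVHL61. For shKIM1-A1 it ranged over 104 to 112, and for both hairpins over 87.4 to 90.25. A ratio over all MMP genes was not computed, so the separation holds for the chosen members only. Both ADAMTS genes together summed to 30.8 ± 0.875, 28.5 ± 1.35, 33.6 ± 0.657 and 21.7 ± 1.45 TPM. The sums carry an offset of the TPM scale between groups. On log2(TPM + 1) the median of the well-expressed genes against Luc976 lay at -0.02 in shVHL61, 0.08 in shKIM1-A1 and -0.08 with both hairpins. On CPM, TIMP1 and TIMP2 did not pass with both hairpins against Luc976 (edgeR adjusted p = 0.218 and 0.28). These sums of mRNA are a description with no test, and they say nothing of protein or of enzyme activity.

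**Figure D4:**
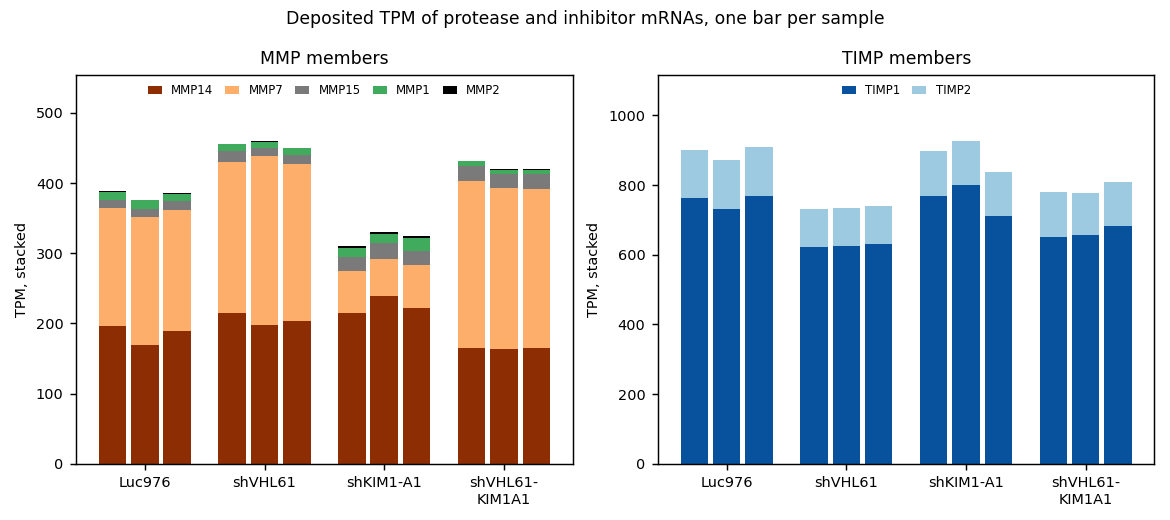
Deposited TPM of the 5 MMPs (left) and of TIMP1 and TIMP2 (right), stacked, with 1 bar per sample and 3 samples per group. The MMP7 segment shrinks to between 52.5 and 61.2 TPM in shKIM1-A1, and TIMP1 makes up most of the TIMP bars in all 12 samples.

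The genes whose pattern over the 12 samples was most like that of the 3 widest-ranging members were found by the root mean square difference of centred log2 CPM among 11425 candidates. For MMP7 they were BMP4, a bone morphogenetic protein (0.21), the keratin KRT81 (0.24) and biglycan, BGN (0.28). BGN, a small proteoglycan of the matrix, held 14.7, 21.1, 4.18 and 30.0 CPM in Luc976, shVHL61, shKIM1-A1 and both hairpins. For MMP2 they were the secreted serine protease HTRA1 (0.27), the glucose transporter SLC2A10 (0.28) and the septin SEPT3 (0.28), and for ADAMTS15 the phosphatase DUSP9 (0.15), PPP1R14B (0.20) and AMBP (0.29). HTRA1 held 12.5, 5.03, 20.1 and 6.36 CPM in the same order of groups, and DUSP9 17.5, 18.6, 5.09 and 10.8 CPM.

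MMP7 and MMP1 belong to a cluster of 9 MMP genes on chromosome 11, which runs in RefSeq from MMP7 through MMP20, MMP27, MMP8, MMP10, MMP1, MMP3 and MMP12 to MMP13. Besides MMP7 and MMP1, MMP13 was the only one of these with enough counts to be tested. MMP27, MMP8, MMP3 and MMP12 held 0 counts in all samples, MMP20 0 to 4 and MMP10 1 to 9 counts per group. MMP13, collagenase-3, rose in shKIM1-A1 against Luc976 by a log2 of 1.05 (SE 0.17, edgeR adjusted p = 0.000262) from 2.16 ± 0.408 to 4.45 ± 0.564 CPM (SD, n = 3 each), in the comparison in which MMP7 was 3.24-fold lower.

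Of 19 other MMP genes, 8 were tested. In shVHL61 against Luc976 2 rose and 2 fell, and in shKIM1-A1 against Luc976 5 rose and 0 fell by edgeR (0 fell at an unadjusted p under 0.05 as well), with the background shares given above. Adding the KIM-1 hairpin to shVHL61 gave 4 rises and 3 falls. MMP9, gelatinase B, rose with either hairpin alone and fell below Luc976 with both (log2 -0.48, edgeR adjusted p = 0.00655). Its CPM averaged 11.1 ± 0.453 for Luc976, 19.9 ± 2.19 for shVHL61, 18.2 ± 2.94 for shKIM1-A1 and 7.95 ± 0.838 for both hairpins (SD, n = 3 each). The rises were 0.85 (SE 0.12, edgeR adjusted p = 0.000127) and 0.72 (SE 0.12, adjusted p = 0.000276), and with both hairpins MMP9 fell by 1.32 against shVHL61 (adjusted p = 6.3e-07). The effect of the KIM-1 hairpin on MMP9 differed by -2.04 between the backgrounds (SE 0.17, edgeR adjusted p = 7.58e-07), the opposite sign to MMP7. MMP11, stromelysin-3, rose by 0.87 in shKIM1-A1 against Luc976 (edgeR adjusted p = 0.000104) and by 0.96 with both hairpins against shVHL61 (adjusted p = 2.51e-05). MMP19 rose by 1.34 in shVHL61 against Luc976 (edgeR adjusted p = 0.0013) and by 2.08 with both hairpins against shKIM1-A1 (adjusted p = 8.37e-06). MMP16, a membrane-anchored MMP, fell by 0.76 in shVHL61 (edgeR adjusted p = 0.00343) and by 1.99 with both hairpins (adjusted p = 2.6e-07) against Luc976. MMP28 rose by 3.47 with both hairpins against Luc976 (SE 0.40, edgeR adjusted p = 3.09e-06), from 7 to 77 counts summed over 3 samples.

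**Figure D5:**
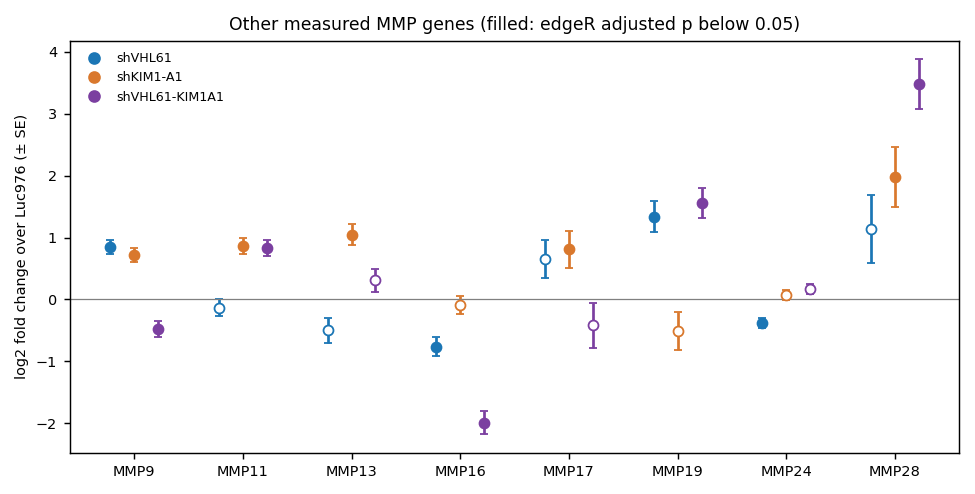
Log2 fold changes over Luc976 with SE bars for the 8 other MMP genes that were tested, in the 3 hairpin groups, filled where the edgeR adjusted p is below 0.05. MMP9 lies at 0.85 and 0.72 with 1 hairpin and at -0.48 with both, MMP16 at -1.99 and MMP28 at 3.47 with both hairpins.

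Of 24 other ADAMTS and ADAMTS-like genes, 17 were tested. By edgeR 0 rose and 6 fell in shVHL61 against Luc976 (0 rose at an unadjusted p under 0.05 as well), 3 rose and 3 fell in shKIM1-A1 against Luc976, and 3 rose and 4 fell with both hairpins against shVHL61. The shares of all tested genes that passed were 16.7%, 31.4% and 42.6% in the same order. ADAMTS3, which trims procollagen and the lymphatic growth factor VEGF-C, held 116 ± 6.60, 110 ± 5.27, 144 ± 11.1 and 52.6 ± 5.55 CPM in Luc976, shVHL61, shKIM1-A1 and both hairpins. The effect of the KIM-1 hairpin on ADAMTS3 differed by -1.37 between the backgrounds (SE 0.11, edgeR adjusted p = 5.62e-07). ADAMTS9, a versican protease, fell by 0.50 in shKIM1-A1 against Luc976 (edgeR adjusted p = 5.12e-05) and by 1.14 with both hairpins against shVHL61 (adjusted p = 9.49e-09). ADAMTSL4, which lacks the catalytic domain and binds fibrillin, rose by 1.28 with both hairpins against shVHL61 (edgeR adjusted p = 6.31e-09).

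Among 13 ADAM proteases 8 were tested, with 1 rise and 2 falls in shVHL61 against Luc976 and 1 rise and 1 fall in shKIM1-A1 against Luc976. Over all tested genes, 16.7% and 31.4% passed in these comparisons. ADAM19, a membrane protease that sheds neuregulin, stood at 36.7 ± 1.81, 30.4 ± 2.19, 16.2 ± 0.756 and 32.5 ± 1.24 CPM in the 4 groups. It fell by 1.18 in shKIM1-A1 against Luc976 (SE 0.08, edgeR adjusted p = 2.5e-08), and the effect of the KIM-1 hairpin differed by 1.28 between the backgrounds (SE 0.11, adjusted p = 6.98e-07). ADAM12 fell by 1.95 in shVHL61 (edgeR adjusted p = 3.85e-05) and by 2.82 with both hairpins (adjusted p = 4.99e-07) against Luc976.

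Of 16 inhibitors, activators and partners, 12 were tested, with 2 rises and 1 fall in shVHL61 against Luc976, 3 rises and 5 falls in shKIM1-A1 against Luc976, and 1 rise and 5 falls with both hairpins against shVHL61. In that order, 16.7%, 31.4% and 42.6% of all tested genes passed. CLDN2 had the smallest p of this list against Luc976 in each hairpin group. It fell by 1.86 in shVHL61 (edgeR adjusted p = 8.57e-12), by 0.92 in shKIM1-A1 (adjusted p = 1.55e-08) and by 2.61 with both hairpins (adjusted p = 6.17e-14). The integrin subunit ITGB3 rose by 0.64 in shKIM1-A1 against Luc976 (edgeR adjusted p = 6.85e-07), and LRP1, an endocytic receptor that clears MMPs and TIMP complexes, rose by 0.49 (adjusted p = 0.000252). TFPI2, a serine protease inhibitor of the matrix, fell by 0.61 with both hairpins against shVHL61 (edgeR adjusted p = 1.59e-07).

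Of 31 matrix substrates 24 were tested, with 4 rises and 10 falls in shVHL61 against Luc976, 5 rises and 8 falls in shKIM1-A1 against Luc976, and 6 rises and 8 falls with both hairpins against shVHL61. These comparisons had 16.7%, 31.4% and 42.6% of all tested genes passing. Fibronectin, FN1, had an effect of the KIM-1 hairpin that differed by -0.64 between the backgrounds (SE 0.06, edgeR adjusted p = 4.13e-06). The effect on BGN differed by 2.33 (SE 0.15, edgeR adjusted p = 4.24e-08). Decorin, DCN, held 368, 211 and 248 counts in the other groups and 5 counts with both hairpins, summed over 3 samples each. E-cadherin, CDH1, a substrate of MMP7, rose by 1.18 with both hairpins against shVHL61 (SE 0.12, edgeR adjusted p = 1.81e-06).

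Of 20 transcription factors known to act on MMP promoters, 19 were tested. By edgeR 0 rose and 5 fell in shVHL61 against Luc976 (2 rose at an unadjusted p under 0.05), 5 rose and 4 fell in shKIM1-A1 against Luc976, and 6 rose and 8 fell with both hairpins against shVHL61. Beside this, 16.7%, 31.4% and 42.6% of all tested genes passed. The AP-1 subunits JUND and ATF3 fell by 0.60 (edgeR adjusted p = 0.000387) and 0.77 (adjusted p = 0.000583) in shVHL61 against Luc976. The ETS factors ETV1 and ETV4 fell by 1.26 (edgeR adjusted p = 1.65e-08) and 0.69 (adjusted p = 2.94e-06) in shKIM1-A1 against Luc976, and by 1.39 (adjusted p = 5.04e-09) and 0.99 (adjusted p = 3.79e-08) with both hairpins against shVHL61. EGR1, next by p in shKIM1-A1 against Luc976, rose by 0.66 (edgeR adjusted p = 7.85e-05). For the difference between the effects of the KIM-1 hairpin, 4 were higher and 4 lower, where 19.8% of all tested genes passed. The factors with the smallest p were ATF3 (1.36, edgeR adjusted p = 5.48e-05), RUNX1 (0.79, adjusted p = 8.09e-05) and ETV5 (-0.66, adjusted p = 0.000182). The part of these factors in the results on the proteases was not tested.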

How the data were processed

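Libraries came from an Illumina TruSeq RNA kit after Trizol extraction, per the labels' protocols. Bowtie 0.12.2 and the mouse builds mm8 and mm9 are named, with no role, in the submitters' processing notes. The sources used here do not give the quantifier, human build, annotation or strand setting, so reads of MMP24 and its antisense gene, or of TIMP1 and TIMP3 and the genes they lie within, may not be told apart. The deposited table holds expected counts (89.7% to 90.7% whole), TPM and FPKM per sample, per the file headers. The authors' deposited table also gives a fold ratio over Luc976 and a PPEE value, which were not used for calls here, and FPKM was not used.

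Expected counts were rounded, and 14230 genes passed filterByExpr (minimum count 10). edgeR 4.0.16 (R 4.3.3, TMM factors 0.976 to 1.05) fitted a quasi-likelihood model to all 12 samples with 4 group terms and 8 residual degrees of freedom, and the biological coefficient of variation was 6.81%. Tests were two-sided with Benjamini-Hochberg adjustment over all genes tested, at 0.05. SE is the log2 fold change divided by the square root of F. Scripts were tested on simulated data. Alternatives were DESeq2 1.42.0, RLE scaling, no filter, limma 3.58.1 on log2(TPM + 1) or log2(TPM + 0.1), only the groups compared, a replicate block, the library set as a term or alone, and leaving out each sample. Library sets were assigned from 11469 genes with over 50 counts on average and a GENCODE GC value, 96.2% of such genes. They come from the data, not from the labels.

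Members and gene lists were chosen with earlier results of these data known. All members are named. Of each list, at most the 3 genes with the smallest p in a comparison are named, plus genes of the MMP cluster and marker genes. Counts of DCN and the values of genes at 0 were chosen after they were seen. For likeness, candidates needed an average log2 CPM of at least 2. The motifs were searched in 250 bases before each start. Protein sequences were not used here, and some list genes are not reported here. With 3 samples per group, no exact test over samples was run.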

Additional observations from a re-analysis of the deposited data

Results flagged for a closer look

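For 6 of the 9 tested genes the effect of the KIM-1 hairpin differed, by the test of the difference itself, between cells with and without the VHL hairpin. Of all 14230 tested genes 19.8% passed this test, and the members were chosen with earlier results of these data known. The differences of the 6 members on the log2 scale were 1.79 for MMP7, 1.34 for ADAMTS15, 0.50 for TIMP2, -0.45 for MMP14, -0.61 for ADAMTS1 and -0.88 for MMP1, with edgeR adjusted p between 2.04e-09 and 0.00567. MMP7 and ADAMTS15 fell with the KIM-1 hairpin alone. With the VHL hairpin present MMP7 did not pass in the fit with group terms only, and ADAMTS15 fell less. TIMP2 fell without the VHL hairpin and rose with it, and ADAMTS1 rose without it and fell with it. MMP14 and MMP1 fell with the VHL hairpin present. Without it neither passed in the fit with group terms only, and each passed as a rise in some alternatives. HAVCR1 itself was higher with both hairpins than in shKIM1-A1 (log2 0.55), and its part in these differences was not tested. The difference between the effects on HAVCR1 was 0.31 with a 95% interval from 0.00 to 0.61 (edgeR adjusted p = 0.152).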

How the results depend on the processing

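Depth limits MMP2, with 12 to 66 counts per sample, and TIMP3, with 0 to 2. The counts of called members stayed within 1.5 times of the reported ones in all 131 settings. The count of all genes passing moved for shVHL61 against Luc976 from 2370 to 4080 with the library set as a term and to between 1329 and 3000 on leaving out 1 sample (1399 without Luc976 sample 1, 1344 without Luc976 sample 3, 1329 without shVHL61 sample 2 and 1350 without shVHL61 sample 3), and for the difference between effects from 2811 to 4764 with the library set as a term. On limma's log2(TPM + 1) scale the median of the well-expressed genes (average log2 CPM of 2 or more) was shifted by -0.17 with both hairpins against shKIM1-A1 and by -0.15 for the difference between effects. The share of higher genes among those passing moved from 43.3% to 28.0% in shVHL61 and from 47.2% to 68.7% in shKIM1-A1 against Luc976, from 50.1% to 19.97%, 48.9% to 36.7% and 49.9% to 40.0% for both hairpins against shKIM1-A1, Luc976 and shVHL61, and from 51.8% to 24.5% for the difference.

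Of 1179 alternative values of single members, 1089 kept direction and call, 25 lost a call, 40 gained one and 25 changed sign. Among called values only TIMP2 changed sign, with both hairpins against shKIM1-A1 (-0.00770 with limma at a pseudocount of 1 and -0.00776 at 0.1). In shVHL61 against Luc976, ADAMTS1 (0.0248) and ADAMTS15 (0.0147) changed sign within set A and MMP15 without shVHL61 sample 1 (range on leaving out 1 sample -0.00661 to 0.199). In shKIM1-A1 against Luc976, TIMP1 gave 0.0104 and 0.0104 with limma and 0.0162 within set A. With both hairpins against shKIM1-A1, MMP15 gave -0.0197 and -0.0204 with limma and -0.0176 within set A, and TIMP1 gave 0.0514 and 0.0328 without shKIM1-A1 sample 2 and without shVHL61-KIM1A1 sample 1 (range -0.0681 to 0.0514). For the difference, MMP2 gave -0.179 and -0.0598 with limma, -0.0223 with the set as a term, -0.469 within set B and -0.0112 without Luc976 sample 3 (range -0.0112 to 0.339), and MMP15 gave -0.0960 and -0.102 with limma, -0.107 with the set as a term, -0.298 within set A, and -0.0460, -0.0403 and -0.00809 without shVHL61 sample 2, shKIM1-A1 sample 1 and shKIM1-A1 sample 3 (range -0.0460 to 0.159). The cause was not tested.

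The labels do not say whether replicate numbers pair samples across groups. The correlation of deviations was over 0.1 for 6 of 18 same-numbered pairs (range -0.602 to 0.470). Those were the pairs within the same library set, and all other pairs were negative. The correlation follows the library set and so cannot decide on a pairing. With the replicate number as a block, the rises of MMP2 with the KIM-1 hairpin were 0.59 (edgeR adjusted p = 0.0526) and 0.77 (adjusted p = 0.0554), and no other call of a member changed. The fit of only the groups compared could not be made for the difference, which uses all 4. Within the library sets each comparison except both hairpins against Luc976 in set A has an arm of 1 sample, assumed to vary like the others. Such fits lost calls for some members and gained calls for others, and only differences are given for them. Within sets A and B, log2 values with both hairpins against Luc976 were -0.83 and -0.86 for MMP2 and -0.12 and -0.004 for MMP14. TIMP1 gave 0.19 and 0.05 with both hairpins against shVHL61, and MMP15 gave 0.28 and 0.11 in shVHL61 against Luc976.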

Other observations

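Genes of the marker lists also moved, in both directions. Of 6 epithelial markers, all tested, 1 rose and 1 fell in shVHL61 and 1 rose and 2 fell in shKIM1-A1 against Luc976. For all tested genes the shares passing were 16.7% and 31.4%. The adhesion protein EPCAM rose in shVHL61 (log2 0.45, SE 0.08, edgeR adjusted p = 0.00126), in shKIM1-A1 (0.84, SE 0.08, adjusted p = 1.94e-06) and with both hairpins (1.35, SE 0.08, adjusted p = 2.5e-09) against Luc976. E-cadherin, CDH1, fell by 0.61 in shVHL61 (edgeR adjusted p = 0.00357), and the keratins KRT18 and KRT8 fell by 0.59 (adjusted p = 2e-05) and 0.28 (adjusted p = 0.0207) in shKIM1-A1.

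Of 14 proximal tubule and kidney markers 9 were tested, and the effect of the KIM-1 hairpin was lower with the VHL hairpin than without it for 4. It was lower for 9.52% of all tested genes. Among the 4 markers were the brush border peptidases MME (-1.51, SE 0.19, edgeR adjusted p = 3.99e-05) and ANPEP (-3.32, SE 0.47, adjusted p = 0.000135). Of 8 fibroblast markers 4 were tested, and 3 fell in shVHL61 and in shKIM1-A1 against Luc976, where 9.44% and 16.6% of all tested genes fell. COL1A1 fell by 0.79 and 0.67 (edgeR adjusted p = 2.57e-05 and 5.6e-05), DCN by 0.91 and 0.64 (adjusted p = 0.000273 and 0.00202) and PDGFRB by 1.43 and 0.79 (adjusted p = 0.00194 and 0.0249). LUM, the remaining tested marker, averaged 103, 125, 120 and 146 CPM in Luc976, shVHL61, shKIM1-A1 and both hairpins. With either hairpin alone LUM rose at an unadjusted edgeR p under 0.05 and did not pass. With both hairpins LUM rose by 0.51 against Luc976 (edgeR adjusted p = 0.000403). The endothelial cadherin CDH5 rose with both hairpins against Luc976 by 1.69 (edgeR adjusted p = 0.000458), from 43 to 131 counts summed over 3 samples. CD68, a lysosomal protein used as a macrophage marker, rose by 0.22 in shVHL61 (edgeR adjusted p = 0.0188) and by 0.40 with both hairpins (adjusted p = 4.07e-05) against Luc976. Of 7 immune markers 3 were tested, and only CD68 passed against Luc976. CD14 averaged 7.37, 5.88, 6.16 and 8.45 CPM in Luc976, shVHL61, shKIM1-A1 and both hairpins. LYZ averaged 1.48, 1.28, 1.46 and 1.35 CPM in the same order. In shVHL61 against Luc976, 1 immune marker was lower at an unadjusted edgeR p under 0.05. The part of these markers in the results on the proteases was not tested.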
